A study of Mus musculus with 3 samples.

Results

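The Parkinson disease genes described here are 9 named genes: the synuclein genes Sncb and Sncg, and Park7, Pink1, Lrrk2, Vps35, Uchl1, Atp13a2 and Fbxo7. The last 7 have been linked to inherited parkinsonism in people, and Sncb and Sncg belong to the synuclein family. They were chosen by symbol, not by their values, but with earlier results of these data known. All 9 were among the 32531 gene symbols of each count table. RNA bound to tagged ribosomes was sequenced by translating ribosome affinity purification (TRAP) from the prefrontal cortex of adult, untreated mice of the Slc17a6-TRAP line JX883. In these mice the Slc17a6 driver, from the gene of the vesicular glutamate transporter VGLUT2, directs the ribosomal protein L10a fused to EGFP to the cells that use it. Each of the 3 libraries came from a pool of 3 mice, and all belong to 1 group, the anti-EGFP immunopurified fraction. No input RNA, other genotype or treated group was analysed here. Levels are therefore those within the purified RNA, and enrichment over the tissue was not measured. In such bulk RNA, fewer cells that use a gene and less RNA per cell cannot be told apart.

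Inherited parkinsonism has been traced to a small number of cell processes. Synucleins are small proteins of the nerve terminal that bind vesicle membranes. PINK1 is a kinase that marks damaged mitochondria for removal, and DJ-1, the product of Park7, responds to oxidative stress. UCHL1 and FBXO7 act in the ubiquitin system, while VPS35, LRRK2 and ATP13A2 act in endosomes and lysosomes. The loss of dopamine neurons of the midbrain defines the disease, but the genes are not restricted to those cells.

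The libraries held 12592174, 8964137 and 12648577 counts over named genes in replicates 1, 2 and 3. Levels are given as CPM, the counts scaled to the same total over named genes in every library. Slc17a6 itself had 857, 723 and 913 CPM, and all 8 cortical glutamatergic neuron markers checked, among them Slc17a7, Camk2a and Tbr1, reached 1 CPM in every library. All 6 GABAergic neuron markers and all 6 astrocyte markers also did, so messages known from other cell types were also measured. Of 7 dopaminergic neuron markers 4 did, namely Aldh1a1, Th, Ddc and Slc18a2, and the 7 summed to 40.8, 37.9 and 50.4 CPM. Th had 9.05, 8.03 and 6.56 CPM in replicates 1, 2 and 3. The midbrain transcription factor genes Pitx3 and En1 had 0 counts in all 3 libraries, and the dopamine transporter gene Slc6a3 had 2, 4 and 1 counts.

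All 9 Parkinson disease genes reached 1 CPM in every library, against 37.9% of all symbols and 67.0% of those with any count. Of the 9, 7 reached 10 CPM in every library, against 44.0% of those symbols. Per length of transcript, as TPM (counts divided by transcript length and scaled to the same sum in every library), the gene levels ran over a 129-fold range, with Uchl1 highest and Fbxo7 lowest. Their median was 51.7 TPM, and the median was 26.2 TPM over the 11964 genes that reached 1 CPM in every library and have a length. Together they held 647 ± 29.9 CPM (SD, n = 3), of which Uchl1 alone made up 43.2% ± 1.77.

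**Figure D1:**
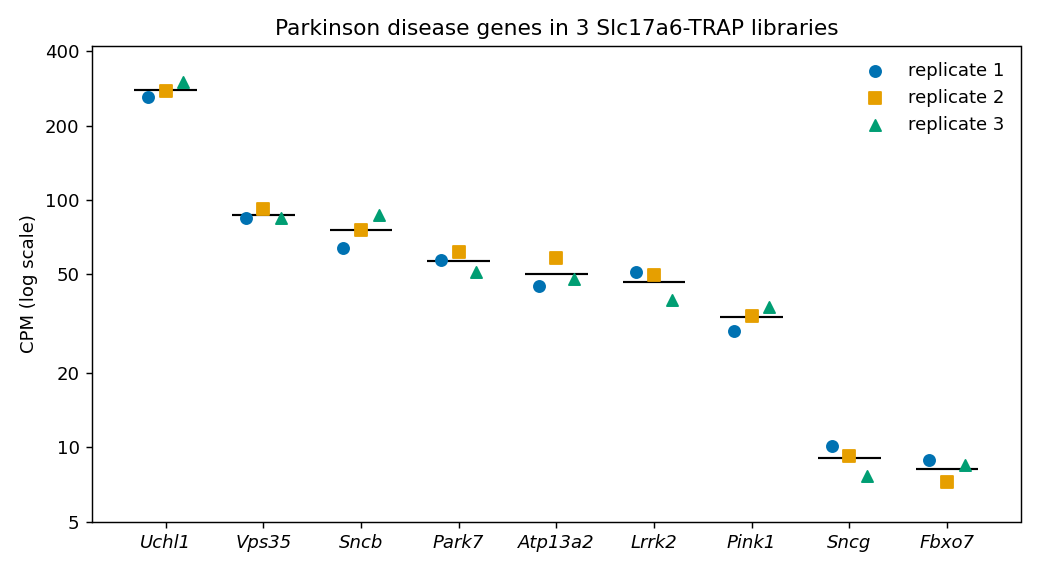
CPM (log scale) of the 9 Parkinson disease genes in the 3 Slc17a6-TRAP libraries, 1 symbol per library, with the mean as a bar. Uchl1 lies between 262 and 299 CPM, above every other gene in each library, and Sncg and Fbxo7 lie at 10.1 CPM or less.

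The synucleins come first. Sncb encodes beta-synuclein, which in the brain is found at presynaptic terminals, and Sncg encodes gamma-synuclein, which is best known from peripheral and retinal neurons. Their messages are close relatives: the coding sequences, of 402 and 372 bases, aligned over 363 bases with 68.6% identity. The longest run that both shared exactly was 16 bases, and none of the stretches of 50 bases in either gene's transcripts occurred in transcripts of another gene. The first 90 coding bases are shown to make this visible, read 5′ to 3′ from GENCODE M21 transcripts on mm10, with capitals at the 18 positions where the pair differs.
Sncb: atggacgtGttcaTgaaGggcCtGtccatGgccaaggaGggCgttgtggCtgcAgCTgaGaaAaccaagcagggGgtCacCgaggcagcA
Sncg: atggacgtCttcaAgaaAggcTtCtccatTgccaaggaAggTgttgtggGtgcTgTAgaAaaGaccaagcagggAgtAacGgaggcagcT
The other 72 bases of this stretch are identical.

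Sncb (chromosome 13, 54758860 to 54766595 on mm10, minus strand) had 64.0, 76.0 and 87.1 CPM in replicates 1, 2 and 3. Sncg (chromosome 14, 34370274 to 34374789, minus strand) had 10.1, 9.26 and 7.67 CPM. The library with the most Sncb, replicate 3, was thus the one with the least Sncg. Behind the Sncg values stood 127, 83 and 97 counts. For replicate 2 the exact Poisson 95% interval, which covers counting error only, ran from 7.37 to 11.5 CPM.

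Per length, Sncb stood at 173 ± 26.7 TPM and Sncg at 51.7 ± 6.96 TPM (SD, n = 3). The difference in log2(TPM + 0.5) was 1.33, 1.70 and 2.16 in replicates 1, 2 and 3, with a mean of 1.73 ± 0.42, or 3.31-fold. Sncb was higher in 3 of 3 libraries. Like Sncb and Sncg, 10 pairs in all were set against each other within each library by a two-sided exact permutation test that flips signs. Each kept 1 sign in 3 of 3 libraries, which gives p = 0.25 and, adjusted over the 10 by Benjamini-Hochberg, 0.25 in this exact test. The smallest p that 3 libraries can give is 0.25, so none of them could pass 0.05. Length was first taken as that of all annotated exons merged. With the longest protein-coding transcript instead, the fold was 5.23.

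The mitochondrial and redox genes were intermediate. Park7 (chromosome 4, 150897133 to 150914437, minus strand) had 57.3, 61.8 and 51.3 CPM in replicates 1, 2 and 3. Pink1 (chromosome 4, 138313409 to 138326307, minus strand) had 29.6, 34.0 and 37.1 CPM. Every Park7 value lay above every Pink1 value. Of Pink1's exonic bases, 6.70% are shared with annotated microRNA genes on the same strand.

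Park7 averaged 112 ± 10.5 TPM and Pink1 61.5 ± 7.003 TPM. Park7 exceeded Pink1 by 0.86 ± 0.25 in log2(TPM + 0.5), or 1.82-fold, in 3 of 3 libraries. The size rested on the length used for Park7, whose merged exons span 2479 bases but whose longest coding transcript is 937 bases. With coding transcripts the fold was 4.26.

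The ubiquitin genes held both ends of the range. Uchl1 encodes a deubiquitinating enzyme that is among the abundant proteins of neurons. Uchl1 (chromosome 5, 66676091 to 66687234, plus strand) had 262, 277 and 299 CPM, or 838 ± 58.0 TPM, which ranked it 123 of 16544 genes with a count and a length. An annotated antisense gene, Uchl1os, covers 18.1% of its exonic bases. Uchl1os had a total of 1 count, in replicate 3. Without knowing whether strand was used in counting, reads of the shared bases cannot be assigned to either gene.

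The coding sequences of Uchl1 and its relative Uchl3, a ubiquitin hydrolase found in many tissues, were 62.3% identical over 663 aligned bases, with no shared run over 9 bases. Uchl3 had 9.53, 9.71 and 16.6 CPM, or 15.3 ± 5.17 TPM. Uchl1 exceeded Uchl3 by 5.78 ± 0.35 in log2(TPM + 0.5), or 54.9-fold, in 3 of 3 libraries. The gap was smallest in replicate 3 at 5.37, against 5.95 and 6.01 in replicates 1 and 2. With coding transcript lengths it was 19.0-fold. Of the 50-base stretches of Uchl3, 7.26% also occur in its near-copy Uchl4, which had 3, 1 and 4 counts, so the Uchl3 level is uncertain.

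Fbxo7 encodes an F-box protein, the part of an SCF ubiquitin ligase that picks substrates, and it also binds the proteasome regulator PI31, the product of Psmf1. Fbxo7 (chromosome 10, 86021972 to 86051873, plus strand) had 8.89, 7.25 and 8.46 CPM from 112, 65 and 107 counts. In replicate 2 the exact Poisson 95% interval was 5.60 to 9.24 CPM, which holds the value of each of the other libraries. An annotated antisense gene, A230060F14Rik, shares 5.08% of its exonic bases. The level of Fbxo7 was 6.50 ± 0.659 TPM, above 16.1% of those 11964 genes.

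Psmf1 had 37.4, 48.7 and 32.9 CPM. Fbxo7 lay 2.12 ± 0.41 below Psmf1 in log2(TPM + 0.5), at 6.50 TPM against 30.2 TPM, and was lower in 3 of 3 libraries. Psmf1 was thus 4.34-fold the higher of the pair.

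The endosomal and lysosomal genes were Vps35, Lrrk2 and Atp13a2. Vps35 encodes the central subunit of retromer, the complex that returns cargo from endosomes. Vps35 (chromosome 8, 85260392 to 85299802, minus strand) had 84.3, 92.0 and 84.9 CPM, the smallest relative spread of the 9 genes. Its level was 47.9 ± 2.46 TPM. Of its exonic bases 1.92% are shared with Orc6 on the other strand.

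Retromer's core holds VPS35 with VPS29 and a VPS26 protein, of which mammals have a pair. Vps26a averaged 168 ± 19.1 TPM, Vps26b 238 ± 10.4 TPM and Vps29 25.8 ± 3.89 TPM. Vps35 was lower than Vps26a by 3.48-fold and than Vps26b by 4.92-fold, and it was 1.85-fold higher than Vps29, each in 3 of 3 libraries. The gap to Vps26b was -2.41, -2.22 and -2.27 log2 units in replicates 1, 2 and 3.

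The sizes for the VPS26 genes depended on length, since the merged exons of Vps35 span 8899 bases and its longest coding transcript is shorter. With coding transcripts Vps35 was 1.44-fold lower than Vps26a and 2.75-fold lower than Vps26b. In CPM, before division by length, it was 1.13-fold lower than Vps26a and 2.83-fold lower than Vps26b. Most of the gap to Vps26a thus rested on the length used. Of the exonic bases of Vps29, 5.53% are shared with Fam216a on the other strand.

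Lrrk2 encodes a large kinase with a GTPase domain that phosphorylates Rab GTPases. Lrrk2 (chromosome 15, 91673175 to 91816120, plus strand) had 51.4, 49.5 and 39.4 CPM, lowest in replicate 3. Spread over merged exons of 11834 bases this came to 19.3 ± 2.65 TPM, above 41.7% of those 11964 genes. Its relative Lrrk1 had 12, 10 and 23 counts, or 0.616 ± 0.219 TPM. Lrrk2 exceeded Lrrk1 by 4.16 ± 0.47 in log2(TPM + 0.5), or 17.9-fold, in 3 of 3 libraries. Because Lrrk1 lay near the pseudocount, that fold understates the gap, and with a pseudocount of 0.1 it was 27.8.

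Atp13a2 encodes a lysosomal pump of the P5 family that moves polyamines. Atp13a2 (chromosome 4, 140986873 to 141007330, plus strand) had 44.9, 58.0 and 47.8 CPM, highest in replicate 2, or 41.0 ± 5.74 TPM. Of its family, Atp13a1 had 15.0 ± 1.28 TPM and Atp13a3 23.4 ± 2.64 TPM. Atp13a2 exceeded them by 2.66-fold and 1.73-fold, each in 3 of 3 libraries. The remaining members had few counts: Atp13a4 had 12, 7 and 18 and Atp13a5 had 4, 3 and 41 in replicates 1, 2 and 3. With coding transcripts the fold over Atp13a1 was 3.98. The difference from Atp13a3 rested on length: before division by length Atp13a3 had 46.5, 42.7 and 53.3 CPM, and Atp13a2 was higher in replicate 2 alone (log2 difference 0.08 ± 0.32, exact permutation p = 1.0).

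**Figure D2:**
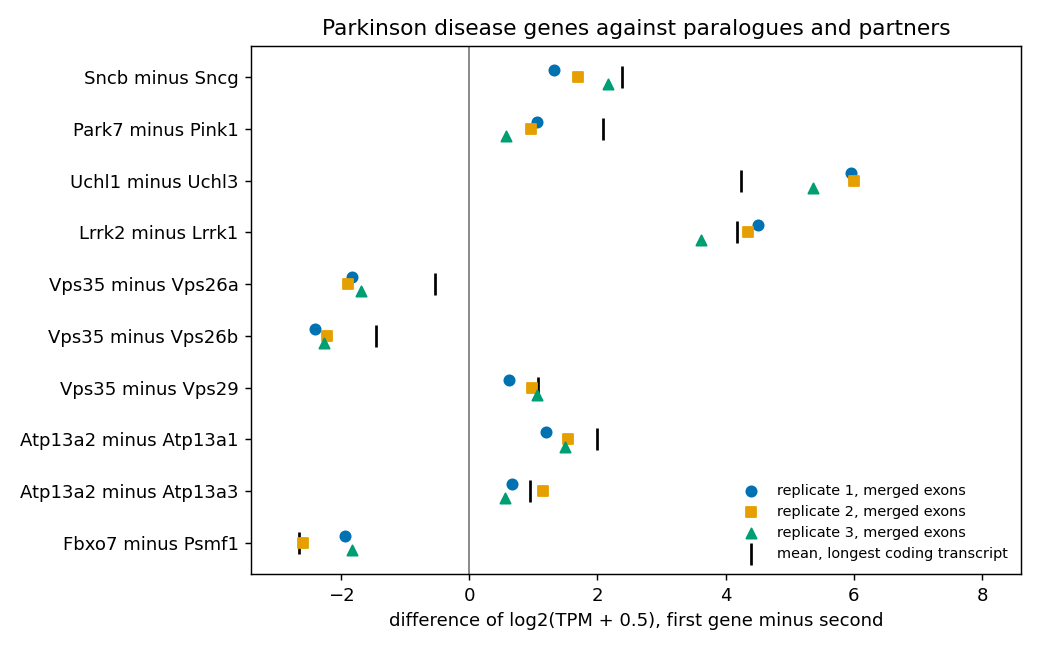
Difference of log2(TPM + 0.5) within each library between a Parkinson disease gene and a paralogue, partner or pathway gene (first minus second), with merged exon lengths as symbols and the mean with coding transcript lengths as a tick. All 10 differences have 1 sign in 3 of 3 libraries, and changing the length moves Uchl1 minus Uchl3, Park7 minus Pink1 and Vps35 minus Vps26a the most.

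By TPM the order was Uchl1, Sncb, Park7, Pink1, Sncg, Vps35, Atp13a2, Lrrk2 and Fbxo7. Of the 8 neighbouring pairs in that order, 6 differed by more than their spread, meaning that the mean log2 difference exceeded its SD and had 1 sign in 3 of 3 libraries. The exceptions were Pink1 over Sncg (0.25 ± 0.36, higher in 2 of 3 libraries, exact permutation p = 0.5, 0.571 adjusted over the 8 pairs) and Sncg over Vps35 (0.10 ± 0.20, higher in 2 of 3, exact permutation p = 0.75, also 0.75 adjusted). For the other pairs the exact permutation p was 0.25, or 0.333 adjusted.

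Uchl1 at the top and Atp13a2, Lrrk2 and Fbxo7 in that order were kept with coding transcript lengths, while the middle of the order was not. Park7 then stood at 205 ± 19.2 TPM, Sncb at 190.0 ± 29.8 TPM and Vps35 at 84.99 ± 4.51 TPM. Pink1 followed at 47.9 ± 5.56 TPM, and Sncg, at 35.8 ± 4.76 TPM, fell below Atp13a2 at 43.0 ± 6.10 TPM.

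**Figure D3:**
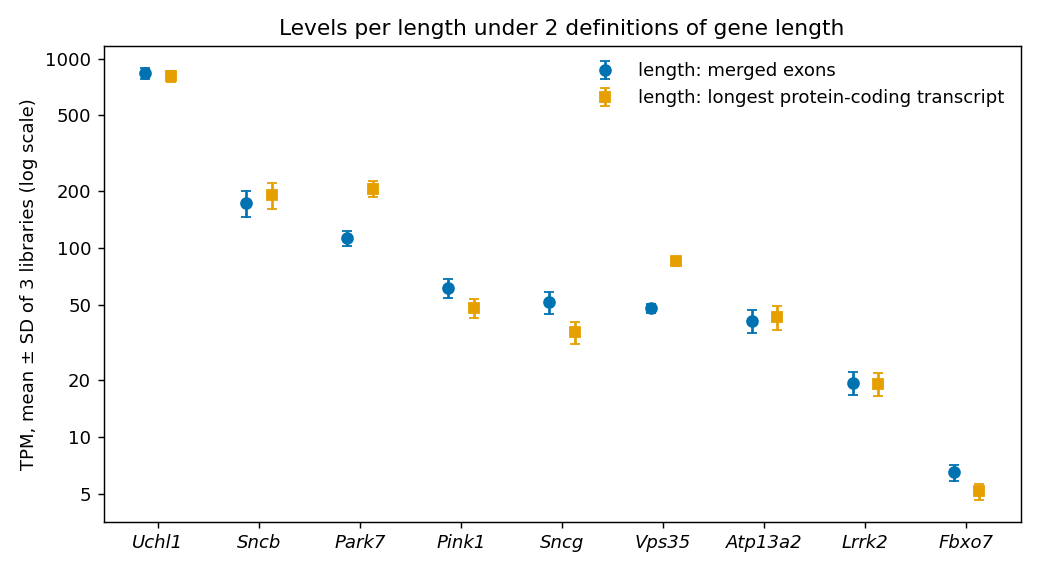
TPM (log scale, mean ± SD of 3 libraries) of the 9 genes in order of level, with length taken as merged exons or as the longest protein-coding transcript. With coding transcripts Park7 is at 205 TPM and Vps35 above Pink1. Uchl1, Sncb, Lrrk2 and Atp13a2 move by less than 1 SD, and Fbxo7 falls from 6.50 to 5.16 TPM.

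The genes closest to each of the 9 in level over the 3 libraries were found by the Euclidean distance of log2(TPM + 0.5) among 12076 genes with at least 10 counts in every library. They were Rnf5 for Sncb (distance 0.03), Ube2e2 for Sncg (0.02), Tmem167b for Park7 (0.06) and Khdrbs1 for Pink1 (0.03). For the others they were Usp27x for Vps35 (0.03), Arhgdia for Uchl1 (0.11), Tmem38b for Fbxo7 (0.05) and the unnamed loci 3830406C13Rik for Lrrk2 (0.04) and AI413582 for Atp13a2 (0.09). With 3 libraries the distance mostly measures level. No gene lay within 0.1 of Uchl1, whereas 14 did for Vps35.

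The libraries are replicates of 1 group, so the remaining question was whether any of the 9 varied between them more than genes of like abundance. That usual spread was fitted from these same 3 libraries. In the goodness of fit of an edgeR negative binomial model, 0 of 9 were called at an adjusted p of 0.05. Of all 14774 genes tested, 0.244% were. At an unadjusted p of 0.05 edgeR also gave 0 of 9, against 7.22% of all genes, and a DESeq2 fit gave 0 of 9 at an adjusted p of 0.05, against 0.190% of all genes, and 0 at an unadjusted one, against 4.37%. Unadjusted p-values in edgeR ran from 0.277 for Sncb to 0.909 for Fbxo7. A p that misses the threshold does not show that the levels were equal.

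The coefficient of variation (CV) of the CPM values was lowest for Vps35 at 4.92% and Uchl1 at 6.74%. It was highest for Sncb at 15.3%, whose highest library stood 1.36-fold above its lowest. The coefficient that edgeR expects between replicates at that abundance, beyond counting error, was 13.6% for Sncb and 13.0% for Vps35. The CV, unlike that coefficient, includes counting error, expected at 3.40% for Sncb and 3.18% for Vps35. Sncb's CV lay above its coefficient and that of Vps35 below. How many of all genes lie below theirs was not counted.

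**Figure D4:**
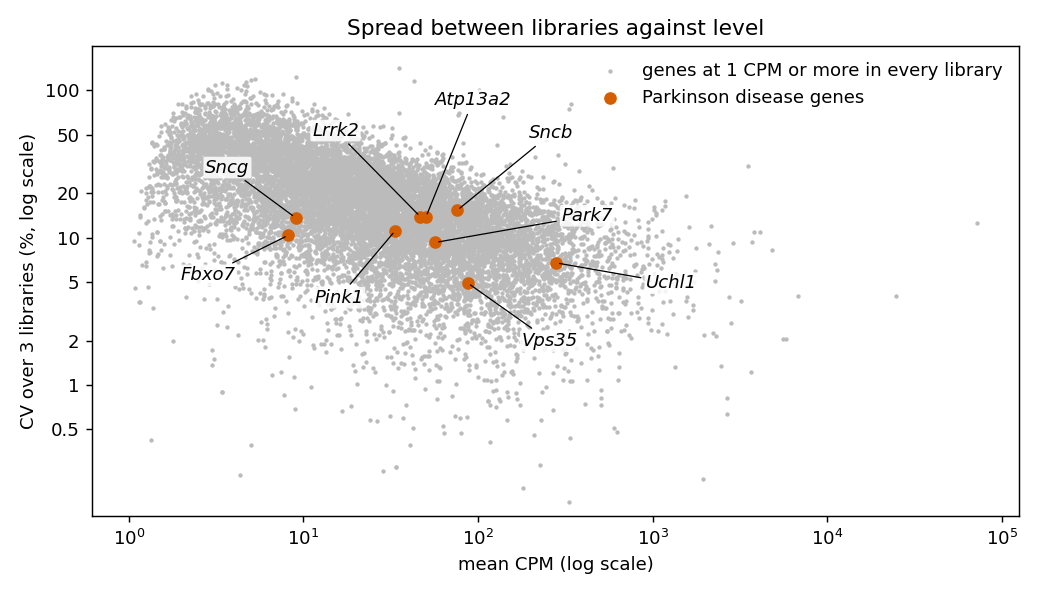
Coefficient of variation over the 3 libraries (percent, log scale) against mean CPM (log scale) for 12321 genes that reached 1 CPM throughout, in grey, and the 9 Parkinson disease genes. Sncb is highest of the 9 at 15.3% and Vps35 lowest at 4.92%, and all lie within the cloud of other genes.

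Direction differed from gene to gene. Sncb, Pink1 and Uchl1 were highest in replicate 3 and lowest in replicate 1, while Sncg and Lrrk2 were the reverse. Summed levels of cell type markers also differed between the libraries, though no marker tested was called as varying. The 8 cortical glutamatergic neuron markers summed to 5239, 5348 and 5630 CPM in replicates 1, 2 and 3. The 6 GABAergic neuron markers summed to 914, 904 and 970 CPM. Summed over the 6 oligodendrocyte markers, of which 5 reached 1 CPM in every library and none was at 0 in all, the level was 326, 459 and 461 CPM in replicates 1, 2 and 3. The 6 astrocyte markers summed to 1014, 1167 and 1102 CPM, and the 6 microglia markers, with C1qa at 0 counts, to 18.9, 27.6 and 28.6 CPM. Whether any of these cell types played a part in the spread of Sncb, Pink1 and Uchl1 was not tested.

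Genes that work with the 9 or are related to them were read from 8 lists of 130 distinct genes, of which 123 reached 1 CPM in every library. Presynaptic partners of synucleins were the highest list, with a median of 552 TPM and 13 of 13 at 1 CPM or more in every library. It was led by the SNARE genes Snap25 at 17784 TPM and Vamp2 at 2531 TPM, and its lowest member was the co-chaperone gene Sgta at 112 ± 12.4 TPM. Sncb, at 173 TPM, lay below that list's median.

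Among 15 genes of oxidative defence all reached 1 CPM, with a median of 165 TPM. Superoxide dismutase Sod1 led at 620.2 ± 47.1 TPM, followed by the peroxiredoxin gene Prdx5 at 339 ± 7.03 TPM, and the glyoxalase gene Glo1 was lowest at 7.05 ± 1.06 TPM. Park7 was at 112 TPM, below that median, but with coding transcripts it was at 205 TPM, above a list median of 151 TPM. All 26 genes of mitochondrial quality control reached 1 CPM in every library, with a median of 76.4 TPM, and Pink1 at 61.5 TPM was below it. The outer membrane channel gene Vdac1 led at 541 ± 17.9 TPM and the autophagy receptor gene Sqstm1 followed at 318 ± 68.8 TPM. Lowest was Parl, the gene of the protease that cleaves PINK1, at 16.9 ± 7.34 TPM.

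All 16 retromer and sorting genes reached 1 CPM, with a median of 89.4 TPM. The late endosome GTPase gene Rab7 led at 2203 TPM and the sorting nexin gene Snx3 followed at 454 ± 76.2 TPM, while the receptor gene Igf2r was lowest at 15.5 ± 3.96 TPM. Of 15 genes on the list of LRRK2's Rab substrates and partners, which also holds its relative Lrrk1, 13 did, with a median of 72.02 TPM. The vesicle GTPase genes Rab3a and Rab3c led at 895 and 380.2 TPM, and Lrrk1 was lowest. Lrrk2 itself, at 19.3 TPM, lay below that median.

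The lysosomal list of 16 genes also holds Atp13a2's relatives Atp13a1, Atp13a3, Atp13a4 and Atp13a5, and Hdac6. Of the 16, 14 reached 1 CPM, with a median of 30.4 TPM. Those relatives stood at 15.0, 23.4, 0.827 and 1.36 TPM, all below that median, so they lower it. Atp13a2 was above this median at 41.0 TPM, but with coding transcripts it was at 43.0 TPM, below a list median of 47.6 TPM. The saposin precursor gene Psap led at 911 ± 59.6 TPM, the protease gene Ctsb followed at 356 ± 7.40 TPM, and Atp13a4 was lowest. Of 16 genes of ubiquitin recycling and of FBXO7's partners 14 did, with a median of 68.6 TPM. The SCF subunit gene Skp1a led at 493 ± 16.9 TPM, followed by the deubiquitinase gene Otub1 at 315 ± 25.6 TPM. The cell cycle kinase gene Cdk6, known in human cells as a partner of FBXO7, was lowest.

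Other genes of inherited parkinsonism were read in the same way, and 15 of 16 reached 1 CPM in every library, with a median of 26.7 TPM. The synaptic phosphatase gene Synj1 had 497 ± 19.0 TPM. Gch1, whose enzyme starts the synthesis of the cofactor for dopamine production, was lowest with 6, 3 and 33 counts. Over the 8 lists, 1 of 130 genes was called as varying between libraries, against the 0.244% of all genes. This was Cdk6, with 4, 76 and 0 counts in replicates 1, 2 and 3 (edgeR goodness of fit, adjusted p = 0.00043).

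**Figure D5:**
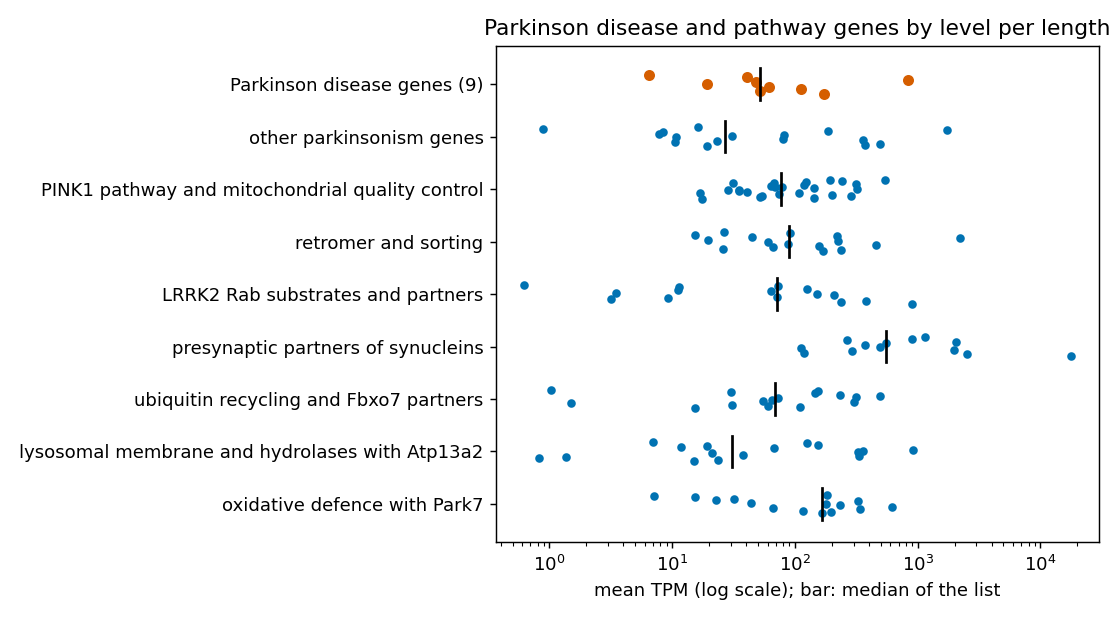
Mean TPM (log scale) over 3 libraries of the 9 Parkinson disease genes, in the top row, and of each gene on 8 pathway lists, with the median of each row as a bar. The 9 genes have a median of 51.7 TPM, and the presynaptic list lies highest with a median of 552 TPM.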

How the data were processed

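RNA was sequenced from 3 immunopurified libraries of 1 group. Values were deposited as raw counts for each gene symbol. The submitters' processing notes name STAR 2.0.0e, HTSeq and mm10. Annotation and strand setting were not given in the sources used here. Summary lines without a gene were left out, and held 27.8% ± 0.563 of counts (SD, n = 3).

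CPM used the total of named genes. TPM used merged exon lengths of GENCODE M21 (mm10), matched by symbol for all 9 genes and for 90.0% of symbols with a count. Log2 values had a pseudocount of 0.5. Variation between libraries was tested over genes that reached 10 counts in any library, with the deviance of an intercept-only edgeR 4.0.16 fit (TMM, trended dispersion) on a chi-square of 2 degrees of freedom, Benjamini-Hochberg adjusted. It was tested on simulated data. Contrasts within a library used a two-sided exact sign-flip permutation test. Alternatives were DESeq2 1.42.0, other filters, lengths and scalings, a common dispersion, and each replicate left out. Coding transcript lengths were added after the data were seen. R 4.3.3, Python 3.11.15, pandas 2.3.3 and scipy 1.17.1 were used.

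The genes, lists and contrasts were chosen with earlier results of these data known. Named were the 9 genes, the genes set against them, the nearest gene of each, and the 2 highest, the lowest and any varying gene of each list, of which 1 is not reported here. Other named genes were chosen after their values were seen. The labels do not say that mice differed between libraries, so p-values measure only the spread between these samples. Intervals cover counting error only, and the counts are of reads, which may repeat a molecule.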

Additional observations from a re-analysis of the deposited data

How the results depend on the processing

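None of the 9 genes was called as varying under any of 8 alternatives, with DESeq2 size factors or a DESeq2 fit, other count minimums, a common dispersion, or any replicate left out. Over all genes the number called was 36, against 26 with a minimum of 1 count in any library, 17 with 10 counts in every library, 1097 with a common dispersion, 28 in DESeq2, and 16 to 21 with a replicate left out. The mean differences of the 10 contrasts kept their direction in all 70 alternatives. Among neighbours in the order of level, Sncb minus Park7 became -0.12 with either transcript length, and Sncg minus Vps35 became -0.72 with the longest transcript, -1.24 with the longest coding transcript and -3.21 in CPM. With 1 replicate left out, Sncg minus Vps35 ranged from -0.0062 to 0.19. The settings on length differ from the values reported in length alone, and the cause of the change without replicate 1 was not tested. In CPM, which ignores length, Atp13a2 minus Atp13a3 was 0.08 ± 0.32 and no longer had 1 sign in all libraries. With either transcript length, Park7 was above the median of the oxidative defence list and Atp13a2 below that of the lysosomal list. Both positions were the reverse of those with merged exons. The longest transcript was a planned length, and the longest coding transcript was added after the data were seen. Of 54 alternatives of a gene's CPM, 52 stayed within 1 SD. The others were Uchl1 and Vps35 without the ribosomal RNA precursor Rn45s in the total, which raised them to 301 and 93.9 CPM. All 9 genes rose in that setting, the rest of them within 1 SD. Sncb, for example, went from 75.7 to 81.7 CPM and Fbxo7 from 8.20 to 8.84 CPM. Rn45s itself had 64289, 69828 and 81920 CPM in replicates 1, 2 and 3. No paired analysis was possible because 1 group leaves no samples of another group to pair by replicate number, and genes were compared within libraries. Depth limits the values of Fbxo7, Sncg and Lrrk1, with 127 or fewer counts per library.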

Other observations

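Several genes with few counts were near 0 in replicates 1 and 2 and higher in replicate 3, and were chosen after their values were seen. Gch1 had 6, 3 and 33 counts in replicates 1, 2 and 3. Atp13a5 had 4, 3 and 41 counts, and Rab29, a regulator of LRRK2, had 7, 6 and 24. The leukocyte gene Ptprc had 0, 2 and 27 counts and the endothelial gene Pecam1 0, 1 and 18. The marker lists that hold these genes did not both rise in replicate 3. Endothelial and mural markers, Pecam1 among them, summed to 25.6, 25.7 and 22.3 CPM in replicates 1, 2 and 3, lowest in replicate 3. Blood markers, Ptprc among them, summed to 2.94, 2.45 and 4.59 CPM. None of Gch1, Atp13a5, Rab29, Ptprc and Pecam1 was called in edgeR, and the lowest adjusted p was 0.505, for Ptprc.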
